A study of Homo sapiens with 24 samples.

Results

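The genes described here are CIITA and 6 genes of antigen presentation by major histocompatibility complex (MHC) class II: CD74, HLA-DRA, HLA-DPA1, HLA-DPB1, HLA-DMA and HLA-DMB. They are 7 of the 19775 genes with a probe set of their own on the Affymetrix U133 Plus 2.0 arrays. They were taken through every probe set that the platform annotation assigns to one of them alone, which gave 15 of 54613 tested probe sets. None of the 15 was also assigned to another gene. For each gene the probe set with the highest mean log2 signal over all arrays is called its main probe set, and values are from it unless another is named. The arrays measured RNA from 24 cultures of the acute myeloid leukemia (AML) cell lines MV4-11 and MOLM-14, with 4 treatments per line and 3 cultures per treatment. Both lines are of the monocytic M5 type and carry FLT3-ITD, an activating duplication in a receptor tyrosine kinase. MV4-11 expresses only the mutated FLT3 allele, whereas MOLM-14 also carries a wild-type allele. Cultures received the solvent DMSO, 3 nM ABT-869, which inhibits FLT3 and other receptor tyrosine kinases, 6 µM SAHA, a histone deacetylase inhibitor, or both drugs (combination), for 24 hours. The methods do not restate the doses within the combination. Each line is a single established line, so a difference between the lines is one between 2 lines and not between kinds of leukemia.

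MHC class II molecules are pairs of an alpha and a beta chain that carry peptides from endosomes to the surface of antigen presenting cells, where CD4+ T cells read them. CD74, the invariant chain, fills and escorts newly made class II molecules, and the HLA-DM pair (HLA-DMA with HLA-DMB) then removes the remaining CD74 fragment and edits the peptide. CIITA, the class II transactivator, is recruited by factors bound to the X and Y boxes of class II promoters and sets how strongly these genes are transcribed. Monocytic cells, including many AML blasts, carry class II molecules. In GRCh38.p14 as annotated by RefSeq, the HLA genes lie in the MHC on chromosome 6, HLA-DRA at chr6:32439887-32445046, HLA-DMB at chr6:32934636-32941028, HLA-DMA at chr6:32948618-32953097, HLA-DPA1 at chr6:33064569-33080748 and HLA-DPB1 at chr6:33075990-33089696, so that the last pair overlap. CD74 is at chr5:150401639-150412910 and CIITA at chr16:10866206-10943021.

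The upstream stretches of 4 of the genes are printed because HLA-DMA and HLA-DMB moved together in the values that follow while CD74 and HLA-DPB1 did not move with them. Each is the last 150 bases before the annotated start of the gene, 5′ to 3′ on the strand of the gene, from RefSeq with build GRCh38.p14. HLA-DMA is at chr6:32953098-32953247 on the minus strand, HLA-DMB at chr6:32941029-32941178 on the minus strand, CD74 at chr5:150412911-150413060 on the minus strand and HLA-DPB1 at chr6:33075840-33075989 on the plus strand. Capitals mark the Y box core ATTGG or its form on the other strand, CCAAT, the X2 box core CGTCA or its form on the other strand, TGACG, and a run that HLA-DMA and HLA-DMB share.
HLA-DMA: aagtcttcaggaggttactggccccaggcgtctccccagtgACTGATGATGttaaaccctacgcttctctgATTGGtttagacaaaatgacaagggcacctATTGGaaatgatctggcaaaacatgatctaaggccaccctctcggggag
HLA-DMB: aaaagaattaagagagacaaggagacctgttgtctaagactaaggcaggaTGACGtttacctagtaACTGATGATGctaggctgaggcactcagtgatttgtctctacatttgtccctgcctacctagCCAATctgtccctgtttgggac
CD74: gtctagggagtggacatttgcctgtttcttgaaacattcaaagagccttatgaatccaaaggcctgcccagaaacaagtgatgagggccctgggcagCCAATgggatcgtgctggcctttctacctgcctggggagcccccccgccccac
HLA-DPB1: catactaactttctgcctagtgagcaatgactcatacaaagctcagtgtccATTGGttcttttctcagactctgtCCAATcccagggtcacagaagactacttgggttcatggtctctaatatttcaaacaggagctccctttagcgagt

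In these stretches the Y box core stood at 2 places in HLA-DMA and in HLA-DPB1 and at 1 in HLA-DMB and in CD74, the same numbers in the genes that moved together and in those that did not. HLA-DMB also held a match to the X2 core, on the other strand from position -100. HLA-DPB1 held one farther upstream, from position -193. Whether either match is part of an X box was not tested. Over windows of 300 bases, 250 before and 50 after the start, ATTGG was found on either strand in 34.6% of 35116 promoters and CGTCA in 24.6%, so either core alone is common. The ordered pair, CGTCA followed by ATTGG after 12 to 26 bases, was in 0.558% of the promoters and in 0 of the 6 member promoters, which belong to 5 of the genes (HLA-DPA1 has 2 starts). Only exact cores were searched, so boxes with other bases would be missed, and the 0 does not show that X boxes are absent. The other motifs searched on both strands, the interferon response element (GAAA, 2 bases of any kind and GAAA, in 3.57% of promoters), the gamma-activated site TTCNNNGAA (7.66%) and the E box CACGTG (7.26%), had no match in the member promoters. ACTGATGATG was the longest run common to the HLA-DMA and HLA-DMB windows, beginning at position -109 from the start of HLA-DMA and -84 from that of HLA-DMB. It occurred in 30 of the 35116 promoters (0.0854%), among them one of HLA-DRB1. The search for this run was made after the sequences had been seen, and CD74 and a promoter of HLA-DPA1 shared a run of equal length, 10 bases. The X box was searched only through its X2 core, so whether ACTGATGATG belongs to an X box was not tested.

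The authors' signals had the same trimmed mean on every array (500.06 to 500.07), and log2 signals within a group correlated at 0.915 to 0.934. On 5 arrays the deviation from the group mean was over 0.3 (SD, log2 scale), 3 of them in MV4-11 (ABT-869 replicate 2 and combination replicates 2 and 3) and 2 in MOLM-14 (DMSO replicate 3 and combination replicate 1). The number of arrays limits the precision, with standard errors of the log2 changes around 0.187 (MV4-11) and 0.168 (MOLM-14) as medians over the brighter probe sets. All 7 main probe sets lay above the median level of all probe sets (a signal of 69.9), which does not by itself show expression. CIITA and HLA-DPB1 did so narrowly, at percentiles 56.9 and 56.8, with lowest arrays at 63.7 and 52.4. Of 10 myeloid or monocyte markers 8 were measured, and LYZ, the lysozyme of monocytes, had signals of 12300 to 13245 with DMSO in MV4-11 and 13208 to 15095 in MOLM-14. CD14, the lipopolysaccharide co-receptor of monocytes, was between 6.5 and 31.4 on the 6 DMSO arrays, so this marker was at background while LYZ was high. Of the markers of other cells that carry class II, the summed signal of 7 dendritic cell markers with DMSO was 140 to 409 in MV4-11 and 295 to 315 in MOLM-14, and that of 6 B cell markers was 1096 to 1276 and 915 to 1101, most of it at PAX5 and CD79A. PAX5, a B cell transcription factor, had 611 to 740 with DMSO in MV4-11, CD79A, a B cell receptor chain, had 327 to 358, and the other 4 markers lay between 8.8 and 63.5. Limma called 0 of the 18 measured B cell, dendritic cell and T cell markers against DMSO with any treatment, and 6 of their 108 tests had an unadjusted p under 0.05. Over these comparisons 0.0165% to 8.94% of all probe sets passed and 7.27% to 22.7% had such a p. With DMSO 1 of the 7 dendritic cell markers in MV4-11 and 0 in MOLM-14 had a mean signal over 100, so a change among them could be missed. An array of a whole culture cannot tell a change in every cell from a change in the share of cells that carry the RNA.

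With DMSO, the lines differed by test in CD74 alone among the main probe sets. In MV4-11 the mean signals of CIITA and HLA-DPB1 were 104 and 102. The T cell markers CD3D (127), CD3E (116) and CD2 (109) lay above these there, and CD8A (50.3) and CD3G (15.5) below. In MOLM-14 the means were 82.4 for CIITA and 117 for HLA-DPB1. There CD3E had 87.4, CD2 83.7, CD3D 58.9, CD8A 26.8 and CD3G 16.7. Whether CIITA and HLA-DPB1 were expressed was not tested. CD74 was 7723, 7233 and 6949 on the 3 MV4-11 arrays and 5213, 5120 and 4512 on the 3 MOLM-14 arrays. The groups did not overlap, and CD74 was lower in MOLM-14 by a log2 difference of -0.56 ± 0.12 (SE), a ratio of 0.677 (adjusted p = 0.00512, limma with Benjamini-Hochberg adjustment over 54613 probe sets). The second CD74 probe set, 1567628_at, was also lower in MOLM-14, by -1.28 ± 0.21 (adjusted p = 0.000666, limma). In the comparison of the lines 10.1% of all probe sets passed. The difference at the main CD74 probe set was not called when each array was centred on its median (-0.30, adjusted p = 0.282). That scaling shifts every log2 difference between the lines by 0.26. With that scaling HLA-DPA1 was called instead, higher in MOLM-14 by 0.73 (adjusted p = 0.0427), against 0.47 ± 0.24 without it. HLA-DRA was 1413, 1283 and 1586 in MV4-11, where MOLM-14 had 1122, 1153 and 1086, which did not overlap either, and its log2 difference of -0.34 ± 0.15 had an adjusted p of 0.18. The log2 differences of the others were -0.28 for CIITA, 0.22 for HLA-DPB1, -0.01 for HLA-DMA and -0.23 for HLA-DMB, with adjusted p between 0.447 and 0.991.

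**Figure D1:**
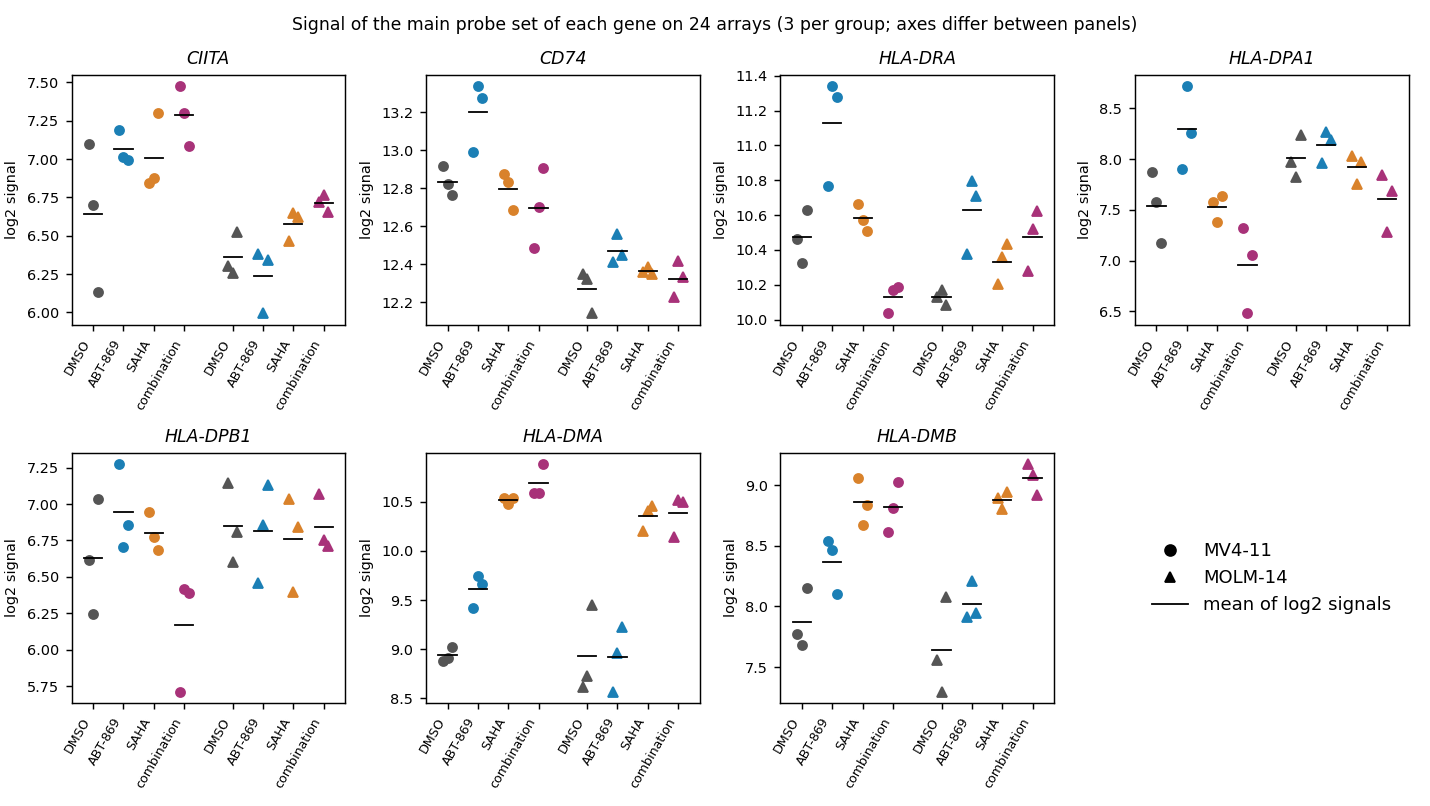
Log2 signal (y axis, scale set per panel) of the main probe set of each of the 7 genes in the 8 groups (x axis), with 1 point per array, circles for MV4-11, triangles for MOLM-14 and a line at the mean of each group. HLA-DMA and HLA-DMB sit higher on all SAHA and combination arrays than on any DMSO array of the same line, while HLA-DRA, HLA-DPA1 and CD74 are highest with ABT-869 in MV4-11.

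CIITA, the transactivator of the pathway, passed the test in 0 of the 16 comparisons made with limma, and 3 of them had an unadjusted p under 0.05. In MV4-11 its signal was 137, 104 and 70.2 with DMSO, 146, 129 and 127 with ABT-869, 115, 117 and 158 with SAHA and 178, 157 and 136 with the combination. The DMSO arrays spread widely and overlapped those of every treatment. In MOLM-14 it was 78.9, 76.5 and 91.9 with DMSO, 83.2, 63.7 and 81.2 with ABT-869, 88.2, 101 and 98.7 with SAHA and 105, 109 and 101 with the combination. Here the combination arrays lay above every DMSO and SAHA array. The log2 change with the combination was 0.64 ± 0.24 in MV4-11 (adjusted p = 0.149, 95% confidence interval 0.10 to 1.19) and 0.35 ± 0.14 in MOLM-14 (adjusted p = 0.196, 0.04 to 0.66). With SAHA it was 0.36 and 0.22, and with ABT-869 it was 0.42 and -0.12, in MV4-11 and MOLM-14 in turn. The combination change in MV4-11 was called in 1 fit over all 24 arrays (adjusted p = 0.0341). The other CIITA probe sets lay below the median level and did not follow the main one. 211884_s_at gave a log2 change of -1.43 ± 0.42 with the combination in MV4-11 (adjusted p = 0.0685), and 210925_at ranged from 5.9 to 168 over the arrays.

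CD74, the invariant chain, was highest with ABT-869 in both lines at its main probe set, without passing the test. In MV4-11 its signal with ABT-869 was 8147, 10352 and 9889, above all 3 DMSO arrays given before, for a log2 change of 0.37 ± 0.15 (adjusted p = 0.326). In MOLM-14 the ABT-869 arrays were at 5436, 6024 and 5583, again above all 3 DMSO arrays, for 0.20 ± 0.11 (adjusted p = 0.736). SAHA gave 7508, 7292 and 6589 in MV4-11, where MOLM-14 had 5242, 5338 and 5212, and the combination gave 5724, 6665 and 7666, and 4785, 5464 and 5153. These overlapped the DMSO arrays in both lines, with log2 changes between -0.14 and 0.09. The combination lay below ABT-869 alone in MV4-11 by -0.50 ± 0.15 (adjusted p = 0.11). That difference was called with a floor of 32, without dim probe sets, with limma-trend and in 1 fit over all 24 arrays (adjusted p from 0.00809 to 0.0368).

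The second CD74 probe set, 1567628_at, disagreed with the main one on the combination against DMSO in MV4-11. In MV4-11 it fell from 787, 718 and 556 with DMSO to 203, 228 and 308 with the combination, with no overlap, a log2 change of -1.49 ± 0.22 (adjusted p = 0.00418, limma). SAHA alone gave 454, 376 and 419 (-0.71, adjusted p = 0.148), and ABT-869 alone 465, 659 and 690. Against ABT-869 alone the combination was lower at both probe sets. The log2 difference was -1.30 ± 0.22 at the second (adjusted p = 0.0161, limma) and -0.50 at the main one, which was not called. In MOLM-14 the DMSO arrays were at 343, 253 and 253 and the combination arrays at 268, 332 and 333, and these overlapped. The response to the combination differed between the lines at this probe set by 1.63 ± 0.29 (adjusted p = 0.00207), whereas at the main probe set the difference was 0.19 ± 0.17 (adjusted p = 0.64). A change of CD74 with the combination against DMSO in MV4-11 therefore depends on the probe set, and which transcripts each one reads was not tested. The third, 1567627_at, was below 32 on 16 of 24 arrays.

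HLA-DRA, the alpha chain of the HLA-DR pair, had its highest signals with ABT-869 and, in MV4-11, its lowest with the combination. With ABT-869 the MV4-11 arrays were at 1746, 2596 and 2482, and with the combination at 1049, 1152 and 1167. All 3 ABT-869 arrays lay above the DMSO arrays (1283 to 1586) and all 3 combination arrays below them. The signal with the combination was 0.5 of that with ABT-869 alone, a log2 difference of -0.999 ± 0.17 that passed the test (adjusted p = 0.0151, limma). The second probe set, 210982_s_at, also gave a lower signal, with a difference of -0.85 ± 0.16 (adjusted p = 0.0245). Against DMSO neither change passed the test, at 0.66 ± 0.17 with ABT-869 (adjusted p = 0.132) and -0.34 ± 0.17 with the combination (adjusted p = 0.269). SAHA alone left HLA-DRA at 1621, 1523 and 1459, a log2 change of 0.11 with a 95% confidence interval of -0.27 to 0.49. In MV4-11 the combination departed from additivity (the 2 single changes summed) by -1.11 ± 0.24 (adjusted p = 0.197), against -0.48 ± 0.23 at the second probe set (adjusted p = 0.639). At the main probe set it was called without dim probe sets (0.0351), with limma-trend (0.00888) and in 1 fit over all 24 arrays (0.019). The difference of the combination from ABT-869 missed the threshold without MV4-11 ABT-869 replicate 3 or without MV4-11 combination replicate 1 (adjusted p = 0.0597 and 0.0556), with each array centred on its median (-0.84, 0.0596), with only the groups compared (0.187) and without 4 of the 5 arrays that stood apart (0.0851).

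In MOLM-14, HLA-DRA was above DMSO on every treated array at its main probe set, but not at its second. The ABT-869 arrays were at 1328, 1775 and 1678, the SAHA arrays at 1179, 1316 and 1382 and the combination arrays at 1242, 1467 and 1580, against 1086 to 1153 with DMSO. Each treatment group lay wholly above DMSO, and the treatment groups overlapped one another in order of their means. None of the log2 changes passed the test, at 0.50 ± 0.15 with ABT-869 (adjusted p = 0.491), 0.20 ± 0.15 with SAHA (0.487) and 0.34 ± 0.15 with the combination (0.237). At the second probe set the SAHA arrays (580 to 673) and the combination arrays (556 to 819) overlapped DMSO (552 to 760), with log2 changes of -0.07 and 0.08. The response to the combination at the main probe set was higher in MOLM-14 than in MV4-11 by 0.69 ± 0.21 (adjusted p = 0.0639). This difference was called under 4 other settings of the whole comparison, quantile normalization among them (0.0454). For the second probe set the difference was 0.51 ± 0.25 (adjusted p = 0.289, limma).

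HLA-DPA1 and HLA-DPB1 are the alpha and beta chains of the HLA-DP pair. At their main probe sets, but not their second, they shared an order of means with HLA-DRA in MV4-11. ABT-869 was highest and the combination lowest, and for HLA-DPB1 groups next to each other in this order overlapped. HLA-DPA1 was 234, 191 and 144 with DMSO, 240, 422 and 307 with ABT-869, 191, 167 and 199 with SAHA and 160.0, 89.3 and 133 with the combination. ABT-869 lay above DMSO without overlap, and the combination lay below SAHA and ABT-869 without overlap but reached into the DMSO range. Between the combination and ABT-869 the log2 difference was -1.34 ± 0.28 (ratio 0.394, adjusted p = 0.0349, limma), and against DMSO it was 0.76 ± 0.28 with ABT-869 (adjusted p = 0.284) and -0.59 ± 0.28 with the combination (0.259). The call lay near the threshold. Leaving out any 1 of 8 arrays gave an adjusted p between 0.0583 and 0.0993 with a log2 difference of -1.40 to -1.11. These arrays were DMSO replicate 2, ABT-869 replicates 2 and 3, the 3 SAHA arrays and combination replicates 2 and 3. The DMSO and SAHA arrays are not in this comparison but share the spread of the fit, and without any 1 of them the difference stayed at -1.34. At its second probe set, 211991_s_at, the difference was -0.56 (adjusted p = 0.559). There the combination lay above DMSO in MV4-11, with a log2 change of 0.20, so it was not the lowest group. In MOLM-14 HLA-DPA1 overlapped DMSO with every treatment, and the combination gave a log2 change of -0.41 ± 0.18 (adjusted p = 0.264). HLA-DPB1 was 98.0, 75.9 and 131 with DMSO and 52.4, 85.3 and 84.0 with the combination in MV4-11, which overlapped. Its log2 difference of the combination from ABT-869 was -0.77 ± 0.26 (adjusted p = 0.164). The second HLA-DPB1 probe set, 244485_at, lay below the median level. Its log2 changes against DMSO in MV4-11 were 0.03 with ABT-869, -0.25 with SAHA and -0.04 with the combination. In MOLM-14 all changes of the main HLA-DPB1 probe set against DMSO lay between -0.09 and -0.01, with 95% confidence intervals reaching from -0.62 to 0.52.

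**Figure D2:**
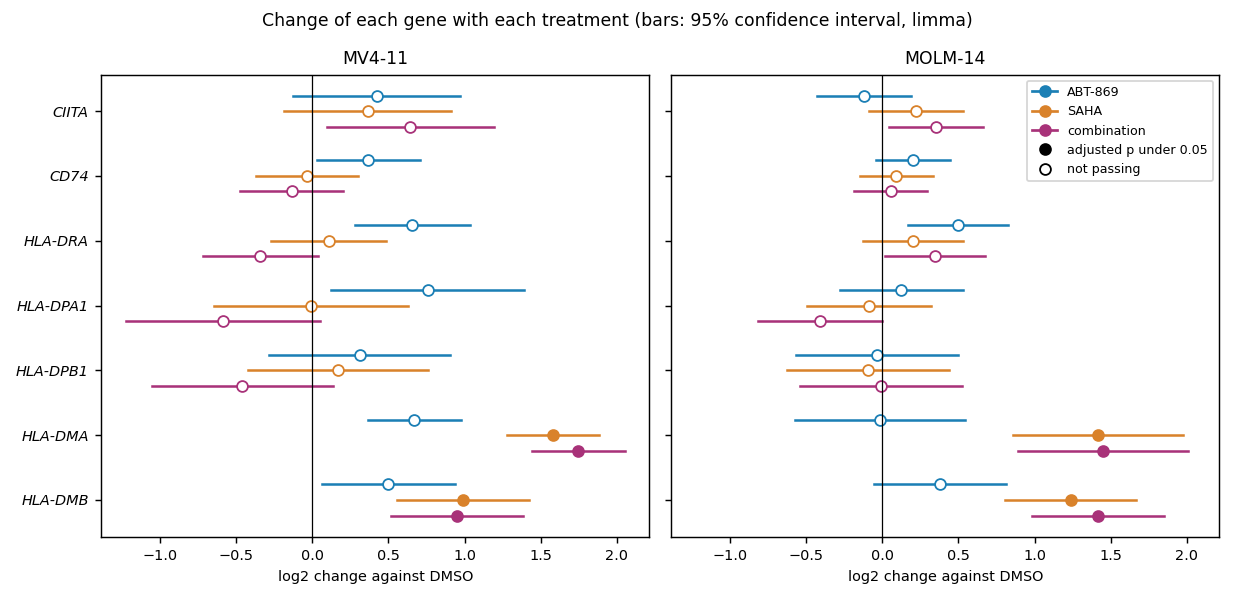
Log2 change against DMSO (x axis) of each gene (y axis) with ABT-869, SAHA and the combination in MV4-11 and MOLM-14, as points with 95% confidence intervals from limma, filled where the adjusted p was under 0.05. The filled points are those of HLA-DMA and HLA-DMB with SAHA and with the combination, at 0.95 to 1.75.

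HLA-DMA and HLA-DMB, the peptide editor, were the members that rose with SAHA and with the combination, in both lines. HLA-DMA in MV4-11 was 473, 481 and 521 with DMSO, 685, 858 and 813 with ABT-869, 1489, 1428 and 1487 with SAHA and 1541, 1538 and 1887 with the combination. These 4 groups followed one another without overlap. HLA-DMA rose 2.99-fold with SAHA (log2 change 1.58 ± 0.13, adjusted p = 0.00134, limma) and 3.36-fold with the combination (1.75 ± 0.13, adjusted p = 0.000248). Both calls held when any 1 of the 12 MV4-11 arrays was left out. With ABT-869 alone the value was 1.59-fold (0.67 ± 0.13, adjusted p = 0.0639 in limma). The combination exceeded ABT-869 by 1.08 ± 0.13 (adjusted p = 0.0048), and its difference from SAHA was 0.17 with a 95% confidence interval of -0.14 to 0.47.

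In MOLM-14 HLA-DMA was 394, 424 and 699 with DMSO, 380, 498 and 598 with ABT-869, 1176, 1355 and 1401 with SAHA and 1129, 1463 and 1443 with the combination. The SAHA and combination arrays overlapped each other and lay above every DMSO and ABT-869 array, which also overlapped each other. The rise was 2.67-fold with SAHA (1.42 ± 0.25, adjusted p = 0.0159, limma) and 2.73-fold with the combination (1.45 ± 0.25, adjusted p = 0.0116). The high DMSO value is on replicate 3, an array that stood apart, and without it the changes were 1.68 and 1.71. The SAHA call missed the threshold without DMSO replicate 1 or 2 or SAHA replicate 2 or 3 (adjusted p = 0.0585 to 0.0668), and the combination call without DMSO replicate 2 or combination replicate 2 (0.0509 to 0.0538). With ABT-869 the log2 change was -0.02 with a 95% confidence interval of -0.57 to 0.54, and the response to ABT-869 differed from that in MV4-11 by -0.69 ± 0.28 (adjusted p = 0.395).

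In MV4-11 HLA-DMB was 219, 205 and 285 with DMSO, 372, 354 and 274 with ABT-869, 534, 408 and 457 with SAHA and 393, 449 and 521 with the combination. SAHA and the combination overlapped each other and lay above both other groups, and ABT-869 overlapped DMSO at 1 array. HLA-DMB rose 1.98-fold with SAHA (0.99 ± 0.19, adjusted p = 0.0337, limma) and 1.93-fold with the combination (0.95 ± 0.19, adjusted p = 0.0167). The SAHA call missed the threshold without DMSO replicate 1 or 2, any 1 SAHA array or combination replicate 2 (adjusted p = 0.0545 to 0.118), and with a replicate block (0.0934). The combination call missed it without DMSO replicate 1 or 2 or combination replicate 3 (0.0539 to 0.0661).

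In MOLM-14 HLA-DMB was 188, 157 and 270 with DMSO, 241, 296 and 247 with ABT-869, 475, 446 and 493 with SAHA and 577, 543 and 484 with the combination. SAHA and the combination again lay above both other groups. The rise was 2.35-fold with SAHA (1.24 ± 0.19, adjusted p = 0.0112, limma) and 2.67-fold with the combination (1.42 ± 0.19, adjusted p = 0.00572), and both calls held when any 1 of the 12 MOLM-14 arrays was left out. The combination exceeded ABT-869 alone by 1.04 ± 0.19 (adjusted p = 0.0124), against 0.45 ± 0.19 in MV4-11 (adjusted p = 0.275). The responses of the lines to SAHA did not differ by test, at 0.25 ± 0.27 for HLA-DMB and -0.16 ± 0.28 for HLA-DMA (MOLM-14 minus MV4-11, adjusted p = 0.801 and 0.894).

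Counted over the main probe sets, 2 of the 7 members rose with SAHA in MV4-11, where 2.46% of all probe sets passed in either direction and 1.47% rose, and 2 rose in MOLM-14, where 5.32% passed and 2.74% rose. With the combination 2 of 7 rose in each line, where 8.94% (MV4-11) and 5.96% (MOLM-14) of all probe sets passed in either direction and 4.89% and 3.15% rose. In all 4 cases they were HLA-DMA and HLA-DMB. With ABT-869 the limma test called 0 of 7 in MV4-11 (0.862% of all probe sets passed), although 5 of 7 had an unadjusted p under 0.05, as did 13.4% of all probe sets. It called 0 of 7 in MOLM-14 (0.0165%), where 1 had such a p, as did 7.27% of all probe sets. In MV4-11 the 5 were HLA-DRA, HLA-DMA, HLA-DPA1, HLA-DMB and CD74, all higher with ABT-869, and HLA-DRA and HLA-DMA were called without dim probe sets, with a floor of 32 and with limma-trend. The median log2 change of the members with ABT-869 in MV4-11 was 0.50, beside 0.053 over all probe sets, and in MOLM-14 it was 0.126 beside 0.0019. With SAHA the medians were 0.169 and 0.203, beside -0.0516 and -0.141, and with the combination -0.136 and 0.345, beside -0.0223 and 0.034, in MV4-11 and MOLM-14 in turn. All these comparisons share the DMSO arrays of their line.

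Against ABT-869, the combination had 1 member higher (HLA-DMA) and 2 lower (HLA-DRA and HLA-DPA1) in MV4-11, where 3.7% of all probe sets passed, 1.89% higher and 1.81% lower. In MOLM-14 it had 2 higher (HLA-DMA and HLA-DMB) and 0 lower, where 8.03% passed, 4.48% higher and 3.54% lower. Against SAHA, limma called 0 of 7 in MV4-11 (0.749% of all probe sets), with 2 at an unadjusted p under 0.05 (13.2% of all), and 0 of 7 in MOLM-14 (0.0146%), with 0 at that level (9.65% of all). Departure from additivity was called for 0 of 7 in either line (0.022% and 0.0128% of all probe sets), with 4 members at an unadjusted p under 0.05 in MV4-11 (8.26% of all) and 0 in MOLM-14 (7.43% of all). Differences between the lines in response were called for 0 of 7 with ABT-869 (0.352% of all probe sets), with SAHA (1.23%) and with the combination (6.55%). At an unadjusted p under 0.05 there were 1, 0 and 1 members in turn (the last HLA-DRA), beside 10.2%, 11.7% and 18% of all probe sets.

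**Figure D3:**
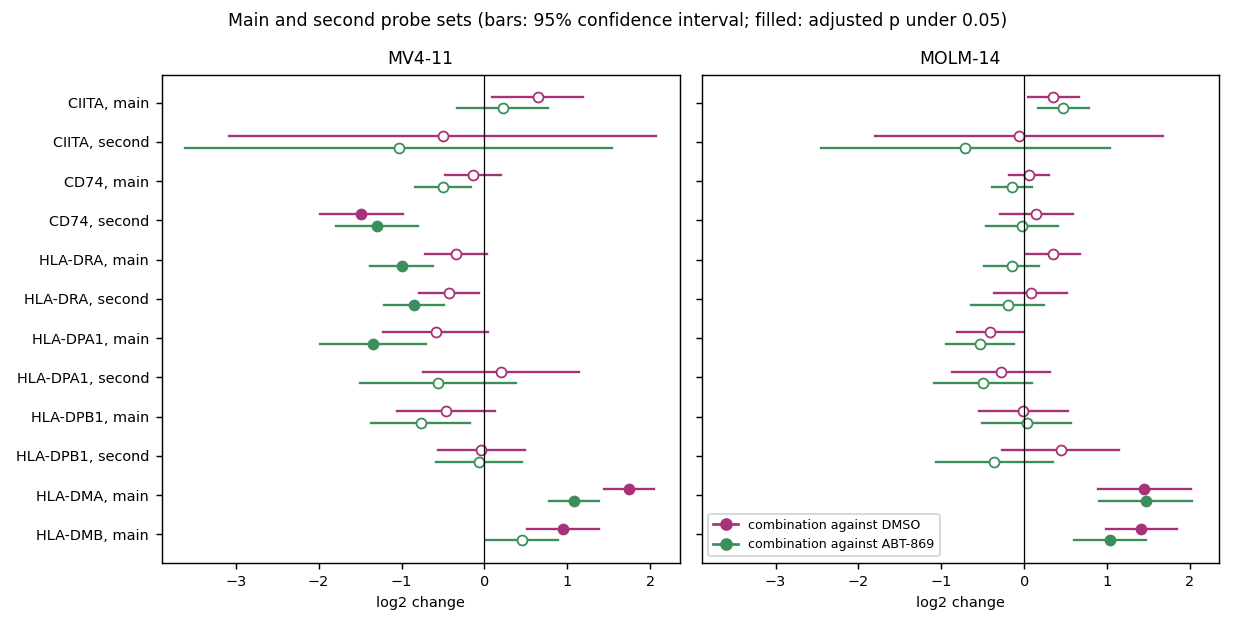
Log2 change (x axis) of the combination against DMSO and against ABT-869 for the main and second probe sets of each gene (y axis; HLA-DMA and HLA-DMB have 1), with 95% confidence intervals from limma and filled points where the adjusted p was under 0.05. The 2 probe sets of HLA-DRA give similar values in MV4-11, while those of CD74 differ (-0.14 and -1.49 against DMSO).

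Across the 24 arrays, which share lines, treatments and scaling, HLA-DMA and HLA-DMB varied together and apart from HLA-DRA, CD74 and HLA-DPA1, given here as a description. HLA-DMA and HLA-DMB correlated at r = 0.905, and at 0.911 after the mean of each line was subtracted. CD74 and HLA-DRA correlated at 0.691, and at 0.852 less the line means, and HLA-DPA1 correlated with HLA-DRA at 0.647 and with CD74 at 0.636 on the latter scale. Across these pairs the values on that scale were -0.14 for HLA-DRA with HLA-DMA, -0.253 for CD74 with HLA-DMA and -0.413 for HLA-DPA1 with HLA-DMA. For CIITA the order depended on the scale. Less the line means it correlated with HLA-DMA at 0.625, HLA-DMB at 0.515, HLA-DRA at -0.227 and CD74 at -0.231, and on the plain log2 signals at 0.58, 0.425, 0.0352 and 0.473 in turn.

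**Figure D4:**
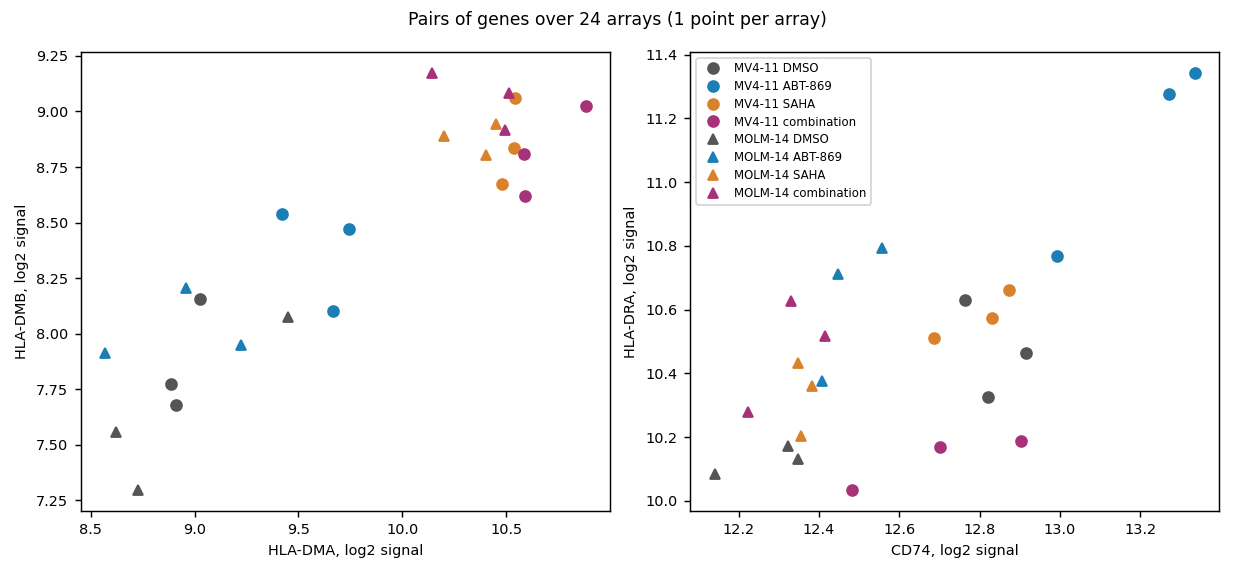
Log2 signals of HLA-DMA against HLA-DMB (left) and of CD74 against HLA-DRA (right), with 1 point per array coloured by treatment, circles for MV4-11 and triangles for MOLM-14. The SAHA and combination arrays of both lines form the upper right of the left panel, whereas in the right panel the MV4-11 ABT-869 arrays are at the top and the MV4-11 combination arrays near the bottom.

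Other class II chains and editors were taken from a list of 10 genes, of which 7 had a probe set of their own. HLA-DQB1, the beta chain of the HLA-DQ pair, rose with SAHA in both lines (log2 change 0.76 ± 0.16, adjusted p = 0.0468 in MV4-11, and 0.80 ± 0.17, adjusted p = 0.0274 in MOLM-14, limma) and with the combination (0.63 and 0.80). Its signal in MV4-11 was 471, 494 and 673 with DMSO and 977, 917 and 855 with SAHA, with no overlap. HLA-DRB1, the partner of HLA-DRA, rose in MOLM-14 with SAHA (0.69 ± 0.14) and with the combination (0.59 ± 0.14). In MV4-11 it was lower with the combination than with ABT-869, with a log2 difference of -0.88 ± 0.18 (adjusted p = 0.0331), as HLA-DRA was. Its response to the combination differed between the lines by 0.97 ± 0.22 (adjusted p = 0.0115). The probe sets of both may also read near-identical HLA-DR and HLA-DQ beta genes, so their signals are uncertain as to the gene. No other gene of this list passed the limma test against DMSO. Among those others HLA-DOB, a chain that restrains HLA-DM, had an unadjusted p under 0.05 with SAHA in both lines (-0.62 in MV4-11, adjusted p = 0.1216, and -0.43 in MOLM-14, adjusted p = 0.1815, limma). The median log2 changes of the list lay between -0.401 and 0.297 over the 6 comparisons, beside -0.141 to 0.053 over all probe sets.

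Of 11 factors that act at class II promoters, 10 were measured. RFXAP, a subunit of the RFX complex that binds the X box, fell in MOLM-14 from 730, 753 and 782 with DMSO to 438, 418 and 467 with SAHA, a log2 change of -0.78 ± 0.14 (adjusted p = 0.0186, limma), and one of -0.71 with the combination. EP300, a histone acetyltransferase and coactivator, fell there with SAHA, by a log2 change of -0.84 ± 0.19 (adjusted p = 0.0362). These were 2 of 10 with SAHA and 1 of 10 with the combination in MOLM-14, where 5.32% and 5.96% of all probe sets passed. In MV4-11 limma called 0 of 10 with each treatment against DMSO. With ABT-869, SAHA and the combination, 0.862%, 2.46% and 8.94% of all probe sets passed there. An unadjusted p under 0.05 was found for 4, 1 and 1 of the 10 in turn, beside 13.4%, 15.9% and 22.7% of all probe sets. The responses of RFXAP and EP300 to SAHA differed between the lines, by -0.86 for RFXAP and -1.06 for EP300 (adjusted p = 0.0473 and 0.0406). The median change of the list was -0.31 with SAHA and -0.32 with the combination in MOLM-14, beside -0.141 and 0.034 over all probe sets. With DMSO, NFYA, a subunit of the factor that binds the Y box, was higher in MOLM-14 by 0.52 ± 0.09 (adjusted p = 0.00168).

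Of 12 genes on the path from interferon gamma to CIITA, 11 were measured. The response differed between the lines by test for 0 of 11 with ABT-869, for IRF8 alone with SAHA, and for SOCS1, PRDM1 and IRF8 with the combination (limma). The shares of all probe sets that differed were 0.352%, 1.23% and 6.55% in turn. In MV4-11 SOCS1, which restrains cytokine signalling, fell from 1092, 1320 and 1220 with DMSO to 557, 576 and 504 with ABT-869 and 346, 376 and 341 with the combination (log2 changes -1.15 ± 0.14 and -1.77 ± 0.14, adjusted p = 0.00969 and 0.000278, limma). IRF1, a transcription factor induced by interferon gamma, fell with SAHA (-0.64) and with the combination (-0.48). In MOLM-14 IRF8, a transcription factor of myeloid cells, fell with SAHA and with the combination (-0.78 each), and IFNGR1, a chain of the interferon gamma receptor, rose (0.62 each). PRDM1, a repressor of CIITA transcription in plasma cells, also rose there (0.69 and 0.64), and SOCS1 rose with SAHA (0.92 ± 0.16, adjusted p = 0.0168). With DMSO, 4 of the 11 were lower in MOLM-14, among them the transcription factor SPI1 (-0.94 ± 0.21, adjusted p = 0.00782). Of all probe sets 10.1% passed in that comparison and 5.18% were lower.

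Of 12 genes of endosomal antigen processing, 11 were measured. MARCHF8, a ubiquitin ligase that removes class II molecules and CD86 from the surface, rose with SAHA in MV4-11 from 429, 368 and 483 to 1120, 952 and 979 (1.26 ± 0.14, adjusted p = 0.00398, limma) while in MOLM-14 the rise was 0.78 ± 0.14 (adjusted p = 0.0189). It rose with the combination too (1.19 and 0.80). CTSH, an endosomal protease, fell in MV4-11 with ABT-869 (-1.05 ± 0.15) and with the combination (-1.23 ± 0.15), and its response to the combination differed between the lines by 1.18 (adjusted p = 0.00349). SPPL2A, which cleaves the remnant of CD74 in the membrane, fell with the combination in MV4-11 (-0.63 ± 0.12), where the protease CTSD rose (0.59 ± 0.14). CTSB, another protease, rose with the combination in MOLM-14 (0.47 ± 0.10). The counts with the combination were 2 higher and 2 lower in MV4-11, against 2 and 0 in MOLM-14. The shares over all probe sets were 4.89% higher and 4.05% lower in MV4-11, and 3.15% and 2.8% in MOLM-14.

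Of the 10 costimulation genes, all measured, CD86, the ligand of CD28 on T cells, rose most. In MV4-11 it went from 362, 389 and 370 with DMSO to 1368, 1316 and 1210 with SAHA and 815, 803 and 692 with the combination (log2 changes 1.80 ± 0.14 and 1.04 ± 0.14, adjusted p = 0.000675 and 0.00249, limma). In MOLM-14 the changes were 1.83 ± 0.31 and 1.97 ± 0.31 (adjusted p = 0.0144 and 0.00894). ICAM1, an adhesion molecule, fell with the combination in both lines (-1.06 ± 0.13 and -0.86 ± 0.18). For comparison, 15 of 16 genes of class I presentation were measured, and 6 fell and 1 rose with the combination in MV4-11, against 4 and 0 in MOLM-14. Over all probe sets 4.05% fell and 4.89% rose in MV4-11, and 2.8% fell and 3.15% rose in MOLM-14. HLA-G (-0.97 ± 0.12) and HLA-E (-0.79 ± 0.18), nonclassical class I chains, fell the most in MV4-11, and CALR, a chaperone of class I, rose (0.79 ± 0.15). PSMB10, a subunit of the immunoproteasome, fell the most in MOLM-14 (-0.93 ± 0.14).

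Some myeloid markers also changed by test against DMSO, in both directions and not always where members passed. With ABT-869 in MV4-11, 3 of 8 measured markers rose, where 0.862% of all probe sets passed and 0.372% rose. HLA-DRA, CD74 and HLA-DPA1 were highest there, although 0 of 7 members passed the test against DMSO. The 3 markers were MPO, an enzyme of granules (1.06 ± 0.16), CSF1R, the receptor of macrophage growth factor (1.07 ± 0.17), and CD36, a scavenger receptor (1.01 ± 0.18), with adjusted p of 0.0263 to 0.0445 in limma. The summed signal of the 8 was 20656 to 21908 with DMSO and 26828 to 30089 with ABT-869 in MV4-11, and 20619 to 22789 and 21507 to 23567 in MOLM-14. Most of each DMSO sum was LYZ, which was not among the 3 that rose by test. CSF1R (mean 499 with DMSO in MV4-11) and CD36 (87.1) add little, so the sum does not show a rise shared by the 8. With SAHA, ITGAM, an integrin of myeloid cells, rose in both lines (log2 changes 0.84 ± 0.12 and 1.002 ± 0.14), CD36 rose in MV4-11 (2.06) and MPO fell in MOLM-14 (-2.74 ± 0.38). With the combination 2 markers rose and 1 fell in each line. CD36 rose in both (1.82 ± 0.18 and 1.38 ± 0.26), LYZ rose in MV4-11 (0.53 ± 0.10), ITGAM rose in MOLM-14 (0.91 ± 0.14), and MPO fell in both (-0.90 and -2.87). The part of the marker changes in those of the members was not tested.

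The genes most like the mean of the 7 standardised members were sought among 11948 genes with a main probe set above the median level, by Pearson's r over the 24 arrays as a description. The 5 highest were SLC37A2 (0.848), RETREG3 (0.815), HLA-DRB1 (0.809), ILRUN-AS1 (0.78) and ZNF133 (0.766). Less the line means they were NREP (0.858), SLC37A2 (0.813), HLA-DRB1 (0.791), ZKSCAN3 (0.772) and RETREG3 (0.771). The members themselves correlated with their own mean at 0.219 (HLA-DPA1) to 0.722 (HLA-DRA), so the mean stands for no member closely.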

How the data were processed

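RNA of 24 cultures was measured on 1 array each. The authors deposited 1 linear intensity per probe set and array, after background correction, probe summary and scaling to a common trimmed mean. Which software they used was not given in the sources used here. Before the log2 was taken, 0.209% of the signals were raised to a floor of 1, and nothing else was normalized. Signals under 32 made up 30.3% of the values. No control probe set (62) was tested, and genes were assigned from the platform annotation. All columns were mapped to samples through their labels.

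Models were fitted with limma 3.58.1 in R 4.3.3, with 1 fit per line over 12 arrays and 4 groups. The lines were compared in 1 fit over 24 arrays and 8 groups. P-values were adjusted over all 54613 probe sets (Benjamini-Hochberg), with a threshold of 0.05. The study states that the triplicates were biological. Replicate numbers were not used to pair samples. Deviations of same-numbered arrays correlated at -0.19 to 0.184 (median -0.0143) in MV4-11 and -0.0634 to 0.328 (median 0.0637) in MOLM-14. Those of differently numbered arrays correlated at -0.192 to 0.265 (median 0.00101) and -0.328 to 0.272 (median -0.02). A weak pairing in MOLM-14 is therefore possible.

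The genes, lists and tests were chosen with earlier results of these data known. Named are all members, at most the 4 largest called changes per list and comparison, and the 5 genes most like the members. The alternatives were quantile normalization, median centring, raising the floor to 32, testing only probe sets brighter than the median level, limma-trend, blocking on the replicate number, fitting both lines at once, fitting only the 2 groups of a comparison, the second probe set of a gene and leaving out each array. Leaving out 4 of the 5 deviating arrays was added after seeing the data. MV4-11 combination replicate 2 was kept. The fit was tested on simulated data. HLA-DRB3, HLA-DRB5, HLA-DQA2, ATF1, IFI30 and other list genes with no probe set naming them alone were not analysed here. Sequences were matched by symbol for 5 of the 7 members.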

Additional observations from a re-analysis of the deposited data

Results flagged for a closer look

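The values in this part are differences in response between the lines on the log2 scale (MOLM-14 minus MV4-11), each with an adjusted p under 0.05 in the limma fit over 24 arrays. For the main probe sets of the members no such difference was called. With the combination, the second CD74 probe set differed by 1.63 and HLA-DRB1 by 0.97. Of the class II promoter factors, EP300 differed by -0.92, RFXAP by -0.92 and NFYA by -0.53, and with SAHA EP300 differed by -1.06 and RFXAP by -0.86. On the interferon gamma path, the combination gave 1.47 for SOCS1, 0.71 for PRDM1 and -0.60 for IRF8, and SAHA gave -0.65 for IRF8. Of the other presentation genes, the combination gave 1.18 for CTSH, 1.22 for HLA-G, 1.06 for HLA-E, 0.91 for HLA-F, -0.81 for CALR, 0.74 for CD40 and 0.998 for TNFSF4. Of the markers, LYZ differed by -0.60 with SAHA and -0.74 with the combination, MPO by -2.32 and -1.97, and EPOR by 1.35 with the combination.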

How the results depend on the processing

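The log2 changes called at the main probe sets in the settings as reported kept their direction in every alternative. Of those called only in an alternative, 2 turned at the second probe set, both of CIITA and without a call there: the combination against ABT-869 in MOLM-14 (0.47 at the main probe set, -0.71 at the second) and against DMSO in MV4-11 (0.64 and -0.50). Over 1025 comparisons of a member under the settings that keep the arrays or drop 4, 26 gained and 23 lost a call, and 73 changed sign without a call in either fit. Of 1680 that leave out 1 array, 2 gained and 25 lost a call, and 50 changed sign without one.

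Counts of called members changed as follows. For SAHA against DMSO in MV4-11 the count was 1 in place of 2 with quantile normalization, with median centring, with a replicate block, with only the groups compared and without the 4 arrays that stood apart. In each it was HLA-DMB that was lost, and leaving out 1 array gave 1 to 2. The replicate block also took HLA-DPA1 from the combination against ABT-869 in MV4-11 (adjusted p = 0.0943) and changed no other call of a member. For ABT-869 against DMSO in MV4-11 the count was 2 in place of 0 with a floor of 32, without dim probe sets and with limma-trend, and 1 in 1 fit over all 24 arrays. For the departure from additivity in MV4-11 it was 1 in place of 0 without dim probe sets, with limma-trend and in 1 fit over all 24 arrays. For the response to the combination, MOLM-14 minus MV4-11, it was 1 in place of 0 with quantile normalization, a floor of 32, no dim probe sets and limma-trend. Each of these added HLA-DRA. With the second probe sets the count was also 1, but there it was CD74 and not HLA-DRA, and leaving out 1 array gave 0 to 1. For the combination against ABT-869 in MOLM-14 it was 4 in place of 2 without dim probe sets, CIITA and HLA-DPA1 being added, and 3 with a floor of 32, with CIITA. For the combination against ABT-869 in MV4-11 it was 4 in place of 3 with a floor of 32, without dim probe sets, with limma-trend and in 1 fit over all 24 arrays, each adding CD74, and 2 with median centring, which lost HLA-DRA. The second probe sets added CD74 and lost HLA-DPA1 there. For the combination against DMSO in MV4-11 it was 3 in place of 2 in 1 fit over all 24 arrays (CIITA added) and with the second probe sets (CD74 added). With median centring the DMSO comparison of the lines lost CD74 and gained HLA-DPA1.

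With only the groups compared, so 4 residual degrees of freedom, the counts were 1 for the combination against DMSO in MV4-11 and 0 for the combination against ABT-869 in MV4-11, for the 3 MOLM-14 comparisons with calls and for the DMSO comparison of the lines. HLA-DMA kept its calls there with SAHA and the combination against DMSO in MV4-11 (adjusted p = 0.039 and 0.031). Without the 4 arrays that stood apart, the counts in MV4-11 were 1 for the combination against DMSO and 1 in place of 3 for the combination against ABT-869. Leaving out 1 array gave 1 to 2 for the combination against DMSO in MV4-11, 1 to 3 for the combination against ABT-869 there, and 1 to 2 for SAHA and for the combination against DMSO in MOLM-14. Where 1 array was left out the groups kept 2 or 3 arrays and shared the spread of the fit. Causes were not tested. Signals near or under 32 had no reliable order, which limits the third probe sets of CD74 and HLA-DPA1.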
